A study of Mus musculus with 4 samples.

Results

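A group of 9 genes of epithelial chloride, bicarbonate and proton transport was followed through bulk RNA-seq of mouse gut tissue. They were taken by gene symbol (Slc26a3, Slc26a2, Slc26a6, Slc9a2, Slc9a3, Slc4a2, Slc12a2, Cftr and Best2), each symbol matched 1 gene, and together they make 9 of the 55203 genes and 53 of the 141738 transcripts listed. All 4 libraries came from wild-type C57BL/6NTac male mice of 8 to 12 weeks, bought and kept specific-pathogen-free (SPF). In 2 libraries the tissue was handled with ribonucleoside vanadyl complex (RVC, a ribonuclease inhibitor) at 4 mM, and 2 were labelled fresh frozen. The same handling text, a rinse in RVC at 4 °C, was attached to every library, so what was done to the fresh-frozen tissue is known only from that label. The libraries carry 4 different batch numbers, so a batch effect and a group effect cannot be told apart. Nothing states whether the samples of a group came from different mice. P-values therefore measure the spread between these samples only.

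The epithelium of the large intestine absorbs salt at its surface and secretes fluid from its crypts. Absorption pairs an apical sodium/proton exchanger with an apical chloride/bicarbonate exchanger, so that sodium chloride enters while acid and base leave the cell. Secretion loads chloride across the basolateral membrane with a sodium-potassium-chloride cotransporter and releases it through apical channels, and a potassium channel subunit keeps the driving force. Slc26a3 (also called DRA) and Slc26a6 (PAT1) are apical chloride/bicarbonate exchangers, Slc26a2 is a sulfate transporter of the same family, and Slc9a2 (NHE2) and Slc9a3 (NHE3) are apical sodium/proton exchangers. These 5 are called the absorptive genes here. Slc12a2 (NKCC1) is the basolateral chloride loader, Cftr the cyclic-AMP-gated anion channel and Best2 a bestrophin channel that conducts bicarbonate and is known from colonic goblet cells. These 3 are called the secretory genes, and Slc4a2 (AE2), a basolateral chloride/bicarbonate exchanger, was kept apart.

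Levels are FPKM (fragments for a kilobase of transcript, set against all mapped fragments of the library), summed over the transcripts of a gene and divided by a library factor that lay between 0.992 and 1.01. Depth relative to the deepest library, fresh frozen 2, was 72.6% in fresh frozen 1, 79.8% in RVC 2 and 81.8% in RVC 1, and the number of fragments is unknown. The labels name ileum while the protocol names distal colon. Of 7 colon segment genes found, 7 reached a mean of 1 FPKM. Of 10 ileum segment genes, 3 did: Apob at a mean of 23.6 scaled FPKM, Fabp6 at 3.36 and Slc10a2 at 2.72. Another 4 were listed at 0 in every library, Fgf15 among them. The tissue is called colonic below on the strength of the protocol and those genes.

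The DNA just before the start of a transcript is shown for members chosen by hand. Slc26a3, the most abundant, is shown at its main start and at an upstream start. The others are Slc9a2, which had higher values in RVC, and Cftr, which had lower values there. Each line gives 250 bases of the plus strand, 5′ to 3′, of GRCm39, ending at the base before the start. Capitals mark matches, on either strand, to TATAAA, to the GC box GGGCGG and to GTTAAT, an arm of the palindromic site known for HNF1 factors. The letters GTTAAT were settled on after the Slc26a3 sequence had been seen.
Slc26a3, main start (ENSMUST00000001254), chr12:31487968-31488217: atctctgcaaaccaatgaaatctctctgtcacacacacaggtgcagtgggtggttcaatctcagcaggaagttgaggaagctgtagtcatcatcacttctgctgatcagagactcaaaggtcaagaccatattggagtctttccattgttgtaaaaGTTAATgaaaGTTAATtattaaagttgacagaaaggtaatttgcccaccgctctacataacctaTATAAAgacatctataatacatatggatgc
Slc26a3, upstream start (ENSMUST00000167432), chr12:31440620-31440869: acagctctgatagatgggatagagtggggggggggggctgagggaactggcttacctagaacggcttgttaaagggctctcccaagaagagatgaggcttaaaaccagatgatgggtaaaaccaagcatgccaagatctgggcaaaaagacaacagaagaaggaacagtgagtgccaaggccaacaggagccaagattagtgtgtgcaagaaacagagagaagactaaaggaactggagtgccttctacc
Slc9a2 (ENSMUST00000027231), chr1:40719484-40719733: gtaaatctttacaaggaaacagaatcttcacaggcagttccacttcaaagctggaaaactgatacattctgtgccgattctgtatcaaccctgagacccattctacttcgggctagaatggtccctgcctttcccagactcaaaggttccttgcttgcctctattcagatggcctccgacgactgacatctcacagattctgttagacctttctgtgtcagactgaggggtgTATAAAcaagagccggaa
Cftr (ENSMUST00000045706), chr6:18170436-18170685: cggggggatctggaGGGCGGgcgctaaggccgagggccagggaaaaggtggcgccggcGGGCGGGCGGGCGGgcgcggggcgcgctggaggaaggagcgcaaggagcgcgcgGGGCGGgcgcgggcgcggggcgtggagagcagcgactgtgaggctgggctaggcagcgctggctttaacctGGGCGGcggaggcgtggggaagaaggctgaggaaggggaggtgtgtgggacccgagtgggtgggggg
The main Slc26a3 start had TATAAA beginning 30 bases before it and GTTAAT beginning 94 and 84 bases before it, in a window of 38.8% G and C. Of 11438 windows of the same length before protein-coding genes tested, 7.003% held TATAAA and 4.153% held GTTAAT, which no other window of the 9 genes held. Slc9a2 also had TATAAA, 18 bases before its start, in a window of 46.4% G and C. The Cftr window had 76.4% G and C, against a median of 59.2%, with no TATAAA and 6 GC boxes, 3 of them run together. The GC box occurred in 56.95% of all windows, including those of Slc12a2 and Slc9a3 with 3 each. No window of the 9 genes held the CDX letters CAATAAA (2.632% of all windows) or the HNF4 letters CAAAGTCC (1.294%). These matches describe letters and no factor was measured.

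Slc26a3 stood far above the other chloride exchangers. Slc26a3 (ENSMUSG00000001225, chromosome 12, 31440870 to 31523916, GRCm39) was at 1253 and 1176 scaled FPKM in RVC 1 and 2 and at 1172 and 852 in fresh frozen 1 and 2. Its mean of 1113 ± 178 (SD, n = 4) placed it at rank 54 among 13771 genes tested. Fresh frozen 2 was low and the other 3 libraries lay close together. Slc26a2 (ENSMUSG00000034320, chromosome 18, 61325991 to 61344684) measured 447, 414, 427 and 437 in the same order of libraries. Its coefficient of variation was 3.32%, the smallest of the 9 genes, and its rank 150. The ratio of Slc26a2 to Slc26a3 was 0.357, 0.352, 0.364 and 0.513, so that fresh frozen 2 stood apart in this ratio as well.

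Slc26a6 (ENSMUSG00000023259, chromosome 9, 108730482 to 108742117), the exchanger known mainly from the small intestine, measured 0.292, 0.358, 0.379 and 0.514 scaled FPKM. These values lay under the minimum mean of 1 FPKM for testing, so 8 of the 9 members were tested. Slc26a3 exceeded Slc26a6 by 4290, 3286, 3096 and 1658 times. The files used here list 9 Slc26a6 transcripts where the GENCODE vM39 annotation has 27, and the transcript that vM39 marks as canonical was not analysed here, so the level may miss reads of that form. All 8 other SLC26 genes found had means under 1 FPKM, the highest being Slc26a11 at 0.936 ± 0.203 scaled FPKM (SD, n = 4).

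The sodium/proton exchangers behaved unlike each other. Slc9a2 (ENSMUSG00000026062, chromosome 1, 40719734 to 40808433) measured 102 and 93.5 scaled FPKM in RVC, against 72.9 and 78.7 in fresh frozen, and the groups did not overlap. Slc9a3 (ENSMUSG00000036123, chromosome 13, 74269576 to 74317561) measured 80.2 and 44.7 in RVC, against 31.2 and 104 in fresh frozen. It was high in RVC 1 and fresh frozen 2 and low in RVC 2 and fresh frozen 1, with both groups spanning a wide range. Its highest library was 3.33 times its lowest, the widest span of the 9 genes. On the log2(scaled FPKM + 1) scale the RVC libraries differed by 0.83 and the fresh-frozen libraries by 1.70, and 1.13% and 0.334% of genes tested differed at least as far within the same pair. The ratio of Slc9a3 to Slc9a2 followed, at 0.782, 0.477, 0.428 and 1.32, so Slc9a2 was the more abundant of the pair in 3 libraries and Slc9a3 in fresh frozen 2. Of the 7 colon segment genes, Hoxd13 ran opposite to Slc9a3, at 9.62, 25.9, 38.97 and 5.73 scaled FPKM in the same order of libraries. Hoxd12 did so at a low level (0.416, 1.85, 1.85 and 0.163). The rest of that list lacked this order but was not all even. Hoxa13 measured 20.9, 20.5, 21.3 and 22.4. Aqp4 measured 32.8, 30.1, 37.2 and 101, highest in fresh frozen 2 like Slc9a3. Whether the samples came from the same place along the colon was not tested.

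Slc4a2 (ENSMUSG00000028962, chromosome 5, 24628835 to 24645948) measured 31.5, 25.3, 25.2 and 32.3 scaled FPKM. As for Slc9a3, RVC 1 and fresh frozen 2 were the higher libraries, though by far less. Fastk, on the opposite strand, overlaps Slc4a2 and measured 19.3 scaled FPKM over the 4 libraries. Use of strand in counting is not given in the sources used here, so reads of the overlap may be divided between these genes.

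Of the secretory genes, the chloride loader and the Cftr channel shared a pattern that Best2 lacked. Slc12a2 (ENSMUSG00000024597, chromosome 18, 58011750 to 58079893) measured 19.6 and 19.6 scaled FPKM in RVC, against 33.2 and 43.5 in fresh frozen. Cftr (ENSMUSG00000041301, chromosome 6, 18170686 to 18322767) measured 10.05 and 10.3 in RVC, against 15.8 and 24.7 in fresh frozen. In each of these genes the RVC libraries were nearly equal, both fresh-frozen libraries were higher, and fresh frozen 2 was the highest. Slc12a2 exceeded Cftr by 1.95, 1.90, 2.11 and 1.76 times, a ratio with the same geometric mean of 1.93 in either group. Best2 (ENSMUSG00000052819, chromosome 8, 85733831 to 85741160) measured 21.8, 19.4, 19.7 and 20.8, with overlapping groups. The ratio of Best2 to Cftr was therefore 2.17 and 1.88 in RVC, against 1.25 and 0.839 in fresh frozen.

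**Figure D1:**
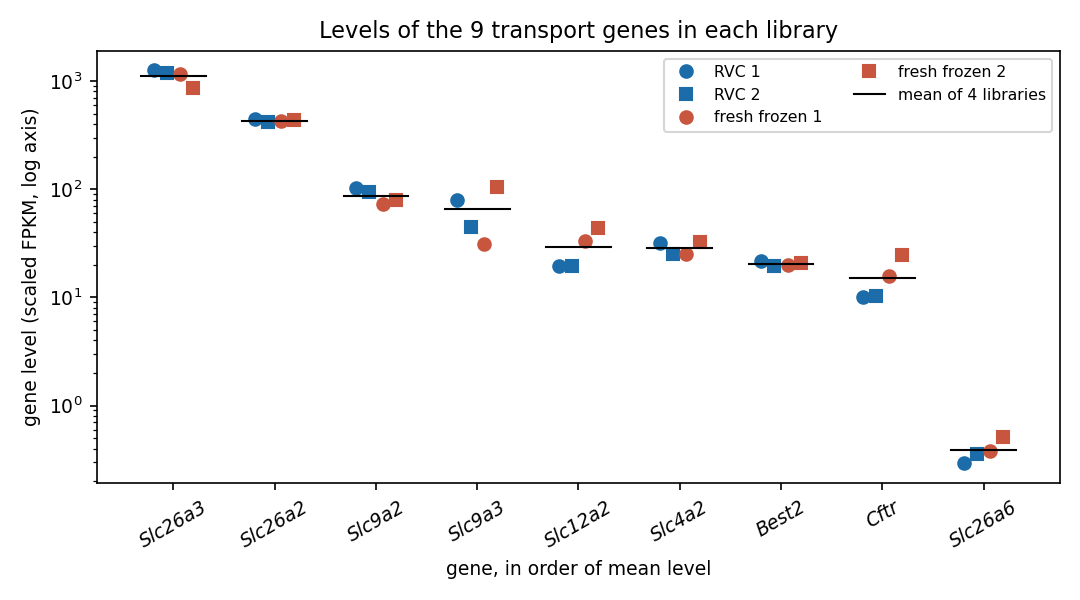
Level of each gene in scaled FPKM (vertical, log axis) for the 4 libraries, RVC in blue and fresh frozen in red, with circles for sample 1, squares for sample 2 and a line at the mean. Slc26a3 lies at 852 to 1253 and Slc26a6 at 0.292 to 0.514, with Slc9a3, Slc12a2 and Cftr spread most widely between them.

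In order of mean level the genes ran Slc26a3, Slc26a2, Slc9a2, Slc9a3, Slc12a2, Slc4a2, Best2, Cftr and Slc26a6. FPKM is a value per length, so genes can be set side by side. Of the 8 pairs of neighbours, 4 were separate, every library of the higher gene lying above every library of the lower one: Slc26a3 over Slc26a2 (2.56 times, geometric mean), Slc26a2 over Slc9a2 (5.0 times), Slc4a2 over Best2 (1.39 times) and Cftr over Slc26a6 (37.5 times). Slc9a2 and Slc9a3, Slc9a3 and Slc12a2, Slc12a2 and Slc4a2, and Best2 and Cftr did not differ beyond their spread. The place of Slc4a2 depends on its many transcripts. With only the most abundant transcript of each gene, the mean of Slc4a2 (12.2 scaled FPKM) came below those of Best2 (14.2) and Cftr (13.1). The libraries of Slc4a2 then overlapped those of both genes, and Slc4a2 was still above Best2 in RVC 1 (16.2 against 14.9). Its separation from Best2 was thus lost.

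Summed over each group, absorptive genes exceeded secretory genes in every library. The ratio of the sums was 36.6 and 35.1 in RVC, against 24.8 and 16.5 in fresh frozen. Both RVC libraries were above both fresh-frozen libraries, and the ratio does not depend on how a library was scaled. Its mean was 4.75 ± 0.53 on the log2 scale (SD, n = 4), with 5.16 in RVC and 4.34 in fresh frozen, a difference of 0.82. The difference was 0.53 without fresh frozen 2 and 1.12 without fresh frozen 1. Slc26a3 held between 57.9% and 68.8% of the absorptive sum, and Slc26a2 between 23.8% and 29.7%, so these genes set its size. Without them the ratio was 3.55 and 2.81 in RVC, against 1.52 and 2.06 in fresh frozen, a choice added after the values had been seen. Within the secretory sum Best2 held 42.3% and 39.4% in RVC and 28.7% and 23.3% in fresh frozen. Slc12a2 held 38.1%, 39.7%, 48.4% and 48.9%. No test was made of this ratio, a score over genes chosen with earlier results known, and 2 libraries against 2 cannot give a permutation p below 0.333. The ratio of Slc26a3 to Cftr alone was 125 and 114 in RVC, against 74.4 and 34.4 in fresh frozen.

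**Figure D2:**
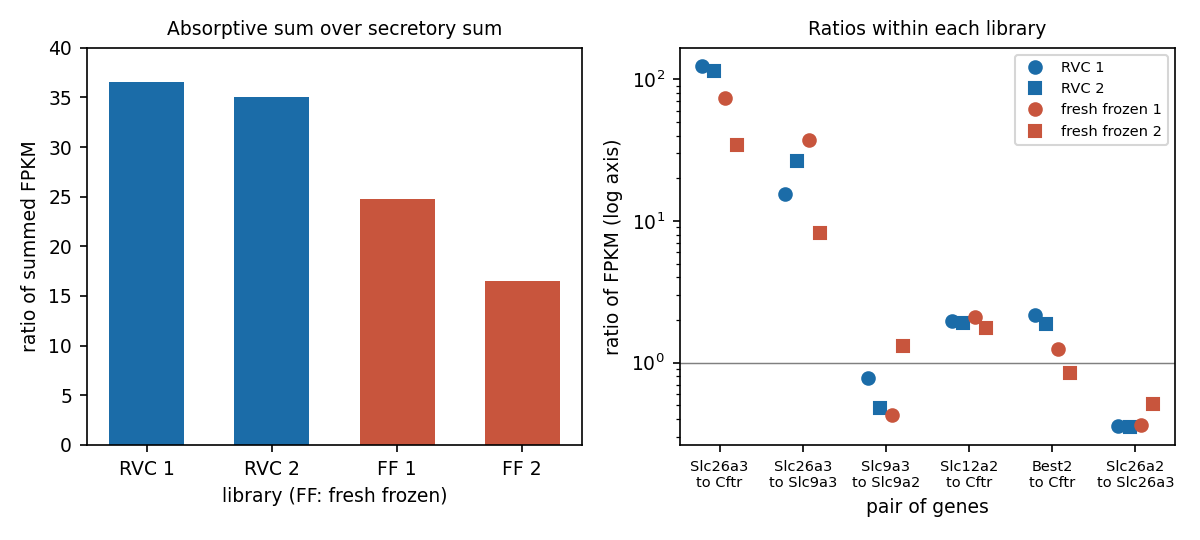
Left, the sum of the 5 absorptive genes over the sum of the 3 secretory genes in each library, as bars from 0. Right, ratios of gene pairs in each library on a log axis, with a line at 1. The sum ratio is 36.6 and 35.1 in RVC, against 24.8 and 16.5 in fresh frozen, while the ratio of Slc12a2 to Cftr stays between 1.76 and 2.11.

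RVC and fresh-frozen libraries were then compared gene by gene with limma, a moderated linear model, two-sided, on log2(scaled FPKM + 1) over all 13771 genes, with Benjamini-Hochberg adjustment and a threshold of 0.05. On this scale the change of low genes is understated. Of the 8 members tested, 0 passed, where 0.0363% of all genes did. At an unadjusted p under 0.05 there were 3 of 8, against 18.4% of all genes. Slc12a2 and Cftr were lower in RVC, where 8.99% of all genes were, and Slc9a2 was higher, where 9.38% were. The groups did not overlap for 4 of 8, against 53.2% of all genes, Slc26a3 and Slc9a2 being higher in RVC and Slc12a2 and Cftr lower. The shares over all genes were 26.5% higher and 26.6% lower, so the count of members without overlap was near the background. The median log2 fold change over all genes was 0.0066.

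The largest differences belonged to the secretory pair. The mean level of Slc12a2 was 38.4 ± 7.28 scaled FPKM in fresh frozen, against 19.6 ± 0.0574 in RVC (SD, n = 2 each). RVC less fresh frozen, this gave a log2 fold change of -0.92 (SE 0.143, 95% interval -1.26 to -0.59), and the limma adjusted p was 0.112. The mean level of Cftr was 20.2 ± 6.36 in fresh frozen, against 10.2 ± 0.178 in RVC (SD, n = 2 each). The corresponding log2 fold change was -0.89 (SE 0.195, 95% interval -1.35 to -0.43), and the limma adjusted p was 0.129. Of all genes tested, 0.850% lay as far from 0 as Slc12a2 and 0.929% as far as Cftr. Without fresh frozen 1, where a single library stands for its group and is assumed to vary like the others, both had a limma adjusted p of 0.0425, with log2 fold changes of -1.11 for Slc12a2 and -1.20 for Cftr. Without fresh frozen 2 the fold change of Cftr was -0.58, with a limma adjusted p of 0.163.

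Among absorptive genes, Slc9a2 had a log2 fold change of 0.37 (SE 0.111, 95% interval 0.11 to 0.63) and a limma adjusted p of 0.176. Slc26a3 had 0.28 (SE 0.183, 95% interval -0.15 to 0.71) and a limma adjusted p of 0.429. The value of Slc26a3 hung on the fresh-frozen libraries: it was 0.050 without fresh frozen 2 and 0.51 without fresh frozen 1. For Slc9a3 the fold change of 0.066 had a 95% interval of -1.13 to 1.26, wide enough to hold a large difference in either direction. It was -0.35 without RVC 1, 0.48 without RVC 2, -0.79 without fresh frozen 1 and 0.92 without fresh frozen 2.

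The fold changes nearest 0 were those of Slc26a2, Best2 and Slc4a2. Slc26a2 had a log2 fold change of -0.0047 (95% interval -0.29 to 0.28), Best2 0.023 (-0.24 to 0.29) and Slc4a2 -0.014 (-0.38 to 0.36). These intervals bound the differences these libraries leave possible; missing the threshold does not show that the groups were equal.

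**Figure D3:**
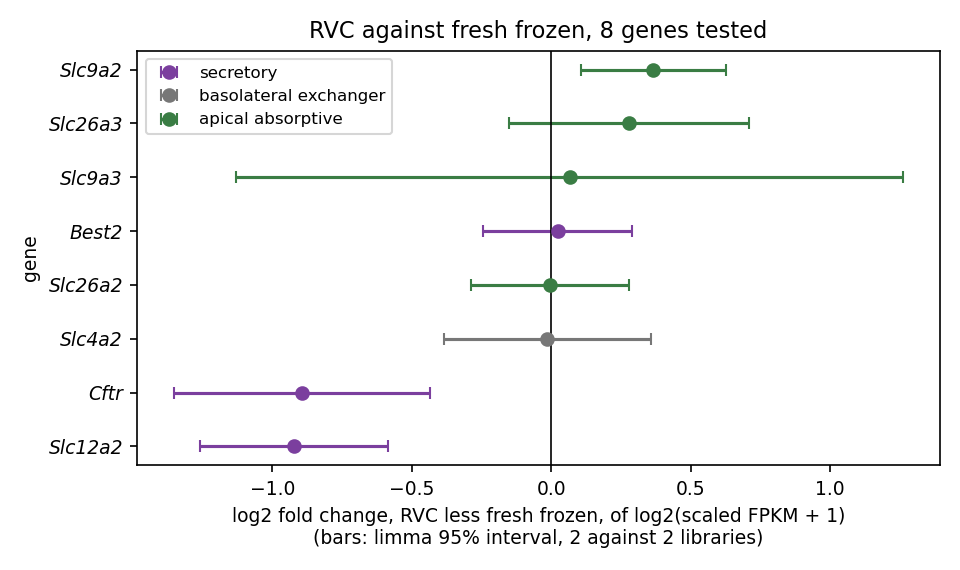
Log2 fold change of the 8 genes tested, RVC less fresh frozen (horizontal), with limma 95% intervals as bars and the role of each gene as colour. The intervals of Slc12a2 (-1.26 to -0.59), Cftr (-1.35 to -0.43) and Slc9a2 (0.11 to 0.63) do not reach 0, and no gene passed the adjusted threshold.

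**Figure D4:**
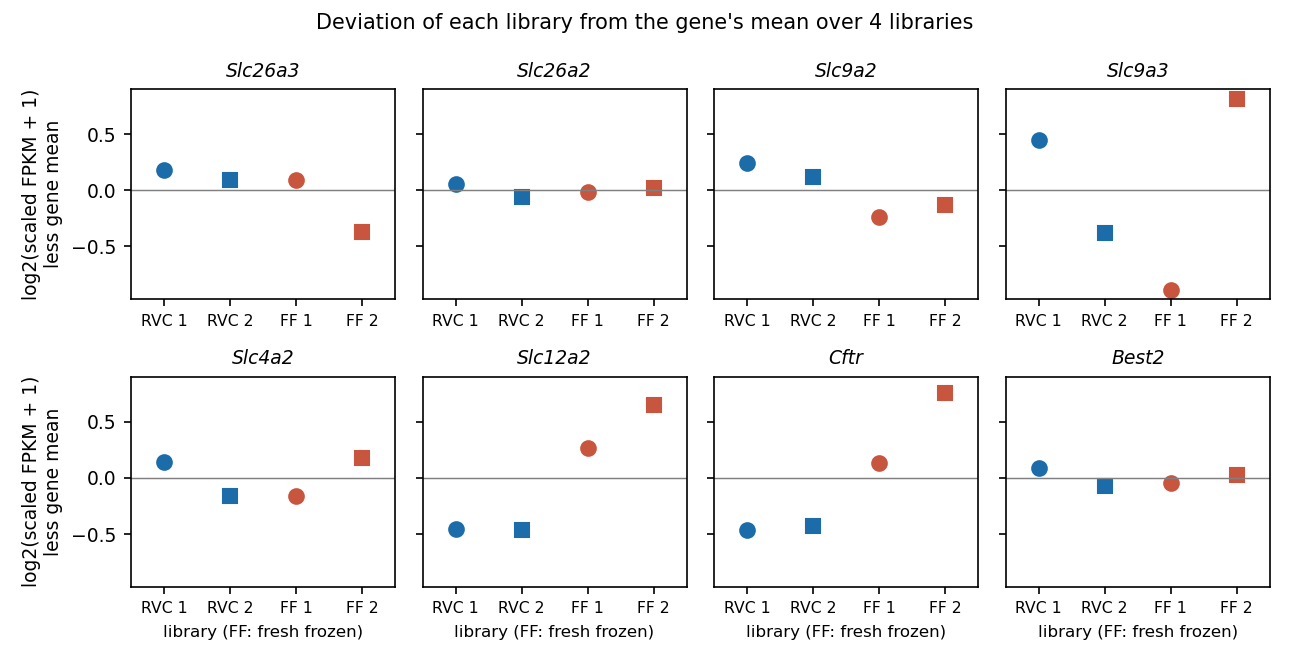
Deviation of each library from the mean of a gene on the log2(scaled FPKM + 1) scale (vertical), a panel per gene, RVC in blue and fresh frozen (FF) in red. Slc12a2 and Cftr share a shape, Slc9a3 alternates with RVC 1 and fresh frozen 2 on top, and Slc26a2 and Best2 are flat.

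Markers of cell types had different levels in the groups too, though 0 of 88 marker genes tested passed the limma adjusted threshold and an unadjusted p under 0.05 was met by 27 with higher and 7 with lower values in RVC, against 9.38% and 8.99% of all genes. The list of crypt stem and proliferation genes summed to 33.3 and 34.9 scaled FPKM in RVC, against 41.3 and 45.4 in fresh frozen. Of its 7 genes tested, 5 had lower values in RVC, where 6748 of all 13771 genes did. The largest falls were those of Mki67, Top2a and Ccnb1 (log2 fold changes -0.62, -0.56 and -0.62). Cdca7 (-0.061), Rnf43 (0.078) and Axin2 (0.022) lay near 0. The list of surface absorptive colonocyte genes summed to 17696 and 16706 in RVC, against 15553 and 12044 in fresh frozen. Most of each sum was Lypd8, at 10438 and 10441 in RVC, against 9890 and 6795 in fresh frozen. Of the list, 8 of 8 genes had higher values in RVC, where 7023 of all 13771 genes did. Slc12a2 and Cftr thus had lower values in the same libraries as Mki67, Top2a and Ccnb1 of the crypt list. Slc26a3 and the sum of the surface list were both lowest in fresh frozen 2. Slc26a3 was nearly equal in RVC 2 (1176) and fresh frozen 1 (1172), and 5 of 8 surface genes were without overlap and higher in RVC. The part of these lists in the result was not tested, and bulk tissue cannot tell fewer cells of a type from less RNA per cell. Pan-epithelial genes summed to 4775 and 4609 in RVC, against 4932 and 3851 in fresh frozen, lowest in fresh frozen 2 like Slc26a3. Higher values in RVC were not particular to the surface list, as 8 of 9 pan-epithelial genes also had a fold change above 0. With each library centred on the median of the pan-epithelial genes, the log2 fold changes were -1.0 for Slc12a2, -0.97 for Cftr, 0.29 for Slc9a2 and 0.20 for Slc26a3. The goblet list, the setting of Best2, summed to 17752, 14252, 14491 and 16621, with 6 of 9 genes above and 3 below a fold change of 0.

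Markers of several cell types outside the epithelium lay further apart, but not those of fibroblasts or of enteric neurons and glia. Groups did not overlap for 0 of 6 fibroblast genes and 1 of 5 enteric neuron and glia genes, against 53.2% of all genes. All 10 smooth muscle genes were without overlap and higher in RVC, where 26.5% of all genes were, and their sum ran from 1200 to 1755 in RVC and from 740 to 806 in fresh frozen. All 8 endothelial genes and all 4 plasma cell genes tested were higher in both RVC libraries as well. Endothelial sums were 24.9 to 25.1 in RVC and 12.3 to 15.9 in fresh frozen, and plasma cell sums 818 to 924 and 307 to 531. Their part in the values of the transporters was not tested.

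The wider set of transport genes held 81 genes found and 53 tested, and 0 passed the adjusted threshold. At an unadjusted p under 0.05 there were 4 higher and 3 lower in RVC of the 53, where 9.38% and 8.99% of all genes were, and the median log2 fold change was 0.055. Without overlap between groups were 14 higher and 12 lower, against 26.5% and 26.6% of all genes, so these counts were not above the background. The gene of smallest p was Kcne3, the subunit that forms the basolateral potassium channel of chloride secretion with Kcnq1. Kcne3 measured 56.2 and 51.5 scaled FPKM in RVC, against 96.6 and 87.8 in fresh frozen, which gave a log2 fold change of -0.77 (SE 0.112; limma adjusted p 0.112). Both RVC libraries lay below both fresh-frozen libraries, as for Slc12a2 and Cftr. Kcnq1 itself measured 6.02 and 6.46 in RVC, against 7.27 and 7.52 in fresh frozen.

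The other genes named by the same rule included bicarbonate importers with opposite signs. Slc4a4, the basolateral sodium-bicarbonate cotransporter NBCe1, measured 24.4 and 31.3 in RVC, against 22.6 and 15.0 in fresh frozen (log2 fold change 0.56). Slc4a7, the related NBCn1, measured 13.3 and 15.7 in RVC, against 16.5 and 25.2 in fresh frozen (-0.47). The volume-regulated channel subunit Lrrc8a (0.34) and the scaffold Slc9a3r2 (0.50) were higher in both RVC libraries, and the sodium pump regulator Fxyd3 (-0.30) lower. The limma adjusted p-values of these 5 genes lay between 0.160 and 0.267.

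By class, the anion channels outside the group were led by Ano1, the calcium-activated chloride channel, at 116 ± 10.4 scaled FPKM (SD, n = 4), above Best2 and Cftr in every library. Ano1 is also a marker of the pacemaker cells of the gut wall, so its level in bulk tissue is not that of the epithelium alone. Ano1 was not counted in the secretory sum, which was 51.5 and 49.3 in RVC and 68.7 and 89.0 in fresh frozen. In each library that sum lay below Ano1, so the absorptive to secretory ratio depends on which channels are counted. The scaffold Ezr, which links brush border proteins to actin, measured 201 ± 26.4. The sodium pump subunit Atp1b1 measured 806 ± 52.0, and the guanylin gene Guca2a, whose peptide turns on fluid secretion, 672 ± 91.7 (SD, n = 4 each). Slc12a7 at 22.6 ± 2.62, Slc4a4 at 23.3 ± 6.68 and Slc9a8 at 8.00 ± 0.529 led the other SLC12, SLC4 and SLC9 genes (SD, n = 4 each).

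The shapes over 4 libraries were compared with those of 4869 protein-coding genes of at least 10 FPKM by the root mean square distance of log2(scaled FPKM + 1) after removal of each gene's mean. Nearest to Slc26a3 were Tmem45b (distance 0.0200), Znhit1 (0.0242) and Ifi27l2a (0.0246). Tmem45b measured 387, 371, 362 and 271, with fresh frozen 2 low as for Slc26a3. With only 4 points such likeness is common: 170 genes lay within 0.1 of Slc26a3. The same measure was taken for Cftr, Slc12a2 and Slc9a3 after their values had been seen. Aadac was the nearest gene to both Cftr (0.0277) and Slc12a2 (0.106). For Slc9a3 the nearest were Ly6m (0.233) and B4galnt2 (0.257), at 95.9, 66.3, 44.2 and 101 and at 89.9, 54.2, 45.6 and 91.4 scaled FPKM. Both had the alternation of Slc9a3, with a smaller range.

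The files give values per transcript, and of the 53 transcripts of the 9 genes 28 were tested. In the limma fit over 24174 transcripts 0 of the 28 passed the adjusted threshold, which 0.00414% of all transcripts did. At an unadjusted p under 0.05 there were 14 of 28, against 15.5% of all transcripts, and groups did not overlap for 19 of 28, against 50.2%. Of these, 14 were higher in RVC, against a background of 25.8%, and 5 lower, against 24.4%. Transcripts of a gene share its reads and are not independent of each other.

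The total of Slc4a2 had near-equal group means, while the values of its transcripts lay apart. The 4179-nt protein-coding transcript ENSMUST00000080067 measured 16.2 and 12.9 scaled FPKM in RVC, against 9.72 and 9.83 in fresh frozen, or 51.3%, 50.9%, 38.5% and 30.5% of the gene. ENSMUST00000115049 (3924 nt), which starts downstream at 24633206, measured 3.88 and 2.87 in RVC, against 4.37 and 6.68 in fresh frozen. These transcripts thus differed in opposite directions, with limma adjusted p-values of 0.263 and 0.342. The 453-nt transcript ENSMUST00000155598 was near 0 in the RVC libraries but at 4.37 (fresh frozen 1) and 5.29 (fresh frozen 2), with a limma adjusted p of 0.0867. The authors' upper bounds for it in RVC were 0.271 and 0.273, below the lower bounds of 2.24 and 3.30 in fresh frozen. Such short transcripts receive reads by likelihood among overlapping forms.

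In Slc26a3 the 2908-nt canonical transcript carried 84.6% and 85.5% of the gene in RVC and 89.3% and 88.3% in fresh frozen. The other 6 transcripts, 1 of them near 0, had higher values in RVC. The protein-coding ENSMUST00000167432 (942 nt), whose start lies upstream of the main one and whose sequence is printed above, measured 49.4 and 39.2 scaled FPKM in RVC, against 20.5 and 15.1 in fresh frozen. Its log2 fold change of 1.28 (SE 0.195, limma adjusted p 0.191) stood beside 0.22 for the canonical transcript. ENSMUST00000110854, annotated as a target of nonsense-mediated decay, measured 63.0, 50.1, 41.9 and 31.2, and the intron-retaining ENSMUST00000165816 54.0, 58.3, 44.1 and 36.8. Both again had every RVC value above every fresh-frozen value.

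Slc26a2 had the same arrangement, with near-equal group means of its total. Its 7814-nt transcript ENSMUST00000146409 measured 407, 374, 406 and 411 scaled FPKM. The intron-retaining ENSMUST00000181997 measured 21.6 and 23.4 in RVC, against 14.1 and 15.6 in fresh frozen, and ENSMUST00000037603 measured 15.0 and 12.5 in RVC, against 5.26 and 8.08 in fresh frozen. The limma adjusted p was 0.232 for the former and 0.237 for the latter. Transcripts other than the most abundant made up 9.10% and 9.59% of Slc26a2 in RVC and 4.93% and 5.92% in fresh frozen, and 15.4%, 14.5%, 10.7% and 11.7% of Slc26a3. This share was higher in both RVC libraries for Slc26a3, Slc26a2, Slc9a2 and Best2, or 4 of 8 members, against 27.6% of 4631 genes with a mean of at least 10 FPKM and more than 1 transcript. It was lower in both for Slc4a2 and Slc12a2, or 2 of 8, against 17.8%. The share was examined after the transcript values had been seen.

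**Figure D5:**
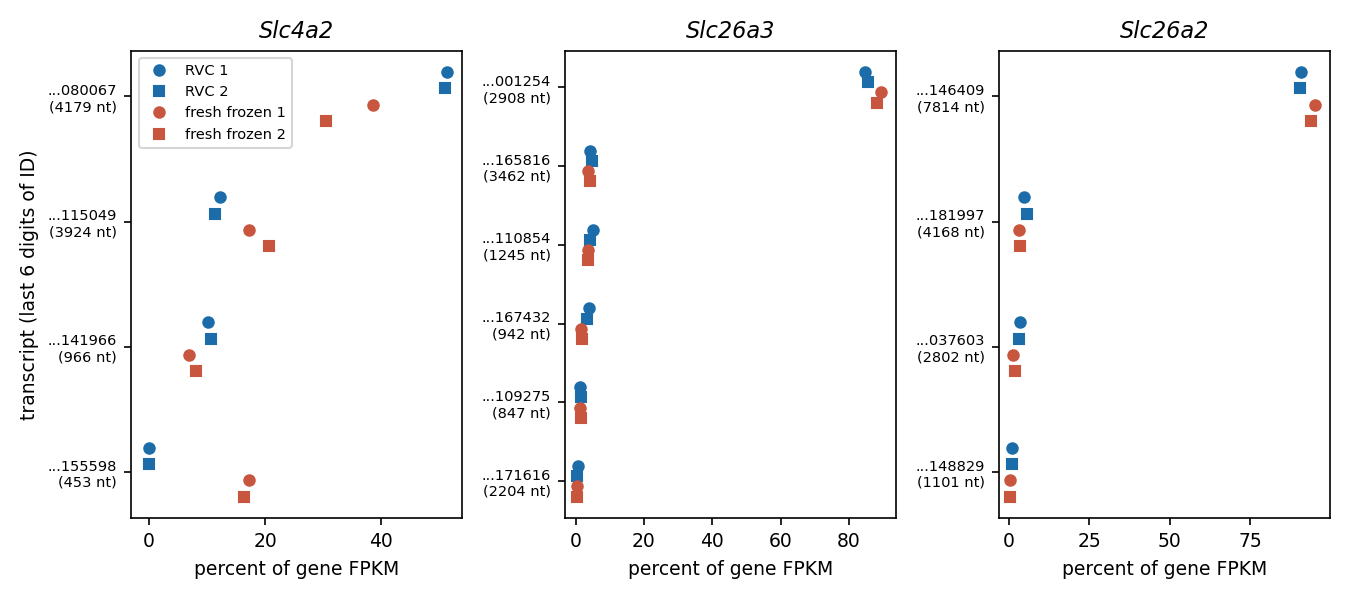
Share of the gene's FPKM (horizontal, percent) held by each transcript of Slc4a2 (the 4 most abundant), Slc26a3 (6) and Slc26a2 (4), for RVC (blue) and fresh-frozen (red) libraries. The 4179-nt transcript of Slc4a2 holds 51.3% and 50.9% in RVC and 38.5% and 30.5% in fresh frozen, while the main transcripts of Slc26a3 and Slc26a2 hold slightly less in RVC.

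The most abundant transcripts of the sodium/proton exchangers and channels had the order of libraries seen for their genes in Slc9a2, Slc9a3 and Cftr. Slc9a2 ENSMUST00000027231 (5019 nt) measured 97.4 and 88.9 scaled FPKM in RVC, against 70.0 and 75.2 in fresh frozen. The main Slc9a3 transcript ENSMUST00000221703 measured 66.5, 39.5, 26.2 and 93.7 and kept the alternation of the gene. The shorter Slc9a3 ENSMUST00000036208 did not, at 6.67, 0.510, 2.63 and 0.0133. Cftr ENSMUST00000045706 (6303 nt) measured 8.51, 8.93, 14.04 and 21.1, and its authors' confidence bounds of 7.92 to 9.10 and 8.32 to 9.53 in RVC lay below those in fresh frozen, 13.2 to 14.9 and 20.0 to 22.2. Those bounds cover the estimate within a library and not the spread between samples. Best2 was carried by ENSMUST00000059072 at 14.9, 13.03, 13.9 and 15.0 and ENSMUST00000209421 at 6.94, 6.38, 5.85 and 5.80. The latter was higher in both RVC libraries, unlike the former and the gene, whose groups overlapped.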

How the data were processed

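RNA was purified from TRIzol lysates, depleted of ribosomal RNA and sequenced as paired 150-base reads, per the labels' protocols. The authors aligned with TopHat2 2.1.1 to GRCm39 and estimated transcript abundance with Cufflinks 2.2.1, per the submitters' processing notes. The annotation release and strand setting are not given in the sources used here. The deposited values are FPKM per transcript with confidence bounds, and a coverage signal, per the file headers. The coverage signal was deposited by the authors unscaled, and its median ratio to FPKM gave relative depth.

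Gene FPKM was summed over transcripts and scaled by median ratio. Genes and transcripts were tested at a mean of at least 1 FPKM and a length of at least 300 nt with every status OK, on log2(FPKM + 1), with limma 3.58.1 in R 4.3.3 (trend, no covariate). The test was tried on simulated data with independent errors drawn from its own model. Those data held no batch or tissue difference, so they do not show how the test behaves under one. Tables and figures used pandas 2.3.3 and matplotlib 3.10.9. Strands and transcript types came from GENCODE vM39 (GRCm39), where 53 of 53 member transcripts were found, 43 with the same ends. Starts are counted from 1.

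Members and gene lists were chosen with earlier results of these data known. Named from the wider list were the most abundant gene of each class and the 3 genes of smallest p per direction without overlap. Of the marker lists, tested members without overlap numbered, higher and lower in RVC, 1 and 2 of 9 for goblet, 0 and 3 of 6 for enteroendocrine and tuft, 0 and 0 of 6 for fibroblast, 1 and 0 of 5 for enteric neuron and glia, and 5 and 0 of 7 for macrophage genes, against 26.5% and 26.6% of all genes. Alternatives were other pseudocounts, scalings, filters, the most abundant transcript, no trend, a replicate block and each library left out.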

Additional observations from a re-analysis of the deposited data

How the results depend on the processing

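The count of member genes past the limma adjusted threshold was 0 except with a replicate block and without fresh frozen 1, where it was 2 (Slc12a2 and Cftr), so leaving out a library gave 0 to 2. At an unadjusted p under 0.05 the count was 3, and 2 to 5 over the alternatives. The replicate numbers share only a number: deviations of same-numbered libraries correlated at -0.13. The block gave limma adjusted p-values of 0.0193 for Slc12a2 and 0.0377 for Cftr, and 112 genes in all against 5. A crossed pairing, chosen after seeing the data, gave 12 genes in all and 0 members. Over 15 alternatives the limma adjusted p ran from 0.0193 to 0.402 for Slc12a2 and from 0.0377 to 0.405 for Cftr. All genes past the threshold numbered 5, 14 to 30 with a library left out and 0 to 7 under the other settings without a block; transcripts numbered 1, 6 with the minimum mean raised to 5 FPKM, and 0 with no filter on low values and with any library left out. The cause of these shifts was not tested. Member transcripts past the threshold numbered 0 in every alternative run.

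Signs changed for genes near 0. Slc4a2 went to 0.52 with the most abundant transcript, Slc26a2 to 0.0029 with upper-quartile scaling, Best2 to -0.057 centred on pan-epithelial genes and to -0.046 with the most abundant transcript, and Slc9a3 to -0.014 centred on pan-epithelial genes. With a library left out, Slc4a2 ran from -0.19 to 0.16, Slc26a2 from -0.061 to 0.051, Slc9a3 from -0.79 to 0.92 and Best2 from -0.057 to 0.10.

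The mean log2 ratio of absorptive to secretory genes was 4.75. It was 4.20 with Slc4a2 among the secretory genes, 4.32 without Slc26a2, 5.59 with channels only and 1.94 as a mean over genes. It was 1.24 without Slc26a3 and Slc26a2 and 5.35 without Best2, both chosen after seeing the data. Its difference between groups, 0.82, was 1.15 without Best2, 0.57 with channels only, 0.63 with Slc4a2 among the secretory genes and 0.53 to 1.12 with a library left out. With the most abundant transcript the log2 ratio was 13.4 ± 1.70 (SD, n = 4) for Slc26a3 to Slc26a6 and 1.13 for Slc12a2 to Cftr. For Slc26a6 that transcript is an intron-retaining form at 0.184 and 0.136 scaled FPKM in RVC, against 0.0164 and 0.139 in fresh frozen. The ratio to it thus rests on values near 0. Depths down to 72.6% of the deepest library, and 2 libraries a group, limit precision.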
